A study of Mus musculus with 6 samples.

Results

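The mouse MHC class II genes and the genes that load peptides onto class II molecules were followed in the thymus of adult female mice of 2 F1 crosses. The set was fixed by name: H2-Aa, H2-Ab1, H2-Ea, H2-Eb1, H2-DMa, H2-DMb1, H2-DMb2, H2-Oa, H2-Ob and Cd74. These 10 genes were chosen with earlier results of these data known. A probe set, the group of short oligonucleotides that stands for 1 transcript on an Affymetrix array, was taken when the platform annotation gave it exactly 1 gene symbol and that symbol was one of these 10. This gave 19 of the 45101 probe sets on each array. They represent 9 of the 10 genes, since H2-DMb1 had no probe set of its own. Thymus RNA came from 3 samples of (AKR/J x FVB/NJ)F1 females (the AKR cross) and 3 samples of (DBA/2J x FVB/NJ)F1 females (the DBA cross), with 1 single-colour array each. All 6 samples share an FVB/NJ parent, so each cross carries 1 FVB/NJ copy of these genes and the crosses differ in the other copy. The design asks how basal expression differs between these genotypes. The samples were untreated apart from the anaesthesia before tissue collection, and whole thymus was used. In bulk tissue, fewer cells of a type and less RNA per cell cannot be told apart.

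Class II molecules are pairs of an alpha and a beta chain that show peptides to CD4 T cells. The mouse makes H2-A from H2-Aa and H2-Ab1, and H2-E from H2-Ea and H2-Eb1. The invariant chain, encoded by Cd74, fills the groove of new class II molecules until they reach endosomes. There H2-DM, the product of H2-DMa with H2-DMb1 or H2-DMb2, exchanges the invariant chain remnant for peptide, and H2-DO, the product of H2-Oa and H2-Ob, restrains H2-DM. In the thymus, class II on cortical epithelium selects CD4 T cells, and class II on medullary epithelium, dendritic cells and B cells removes self-reactive ones. AKR/J, DBA/2J and FVB/NJ are known to carry the H2 haplotypes k, d and q. The k and d haplotypes make H2-E, while mice of the q haplotype lack surface H2-E because of a defect in H2-Ea.

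The deposited values were on a log2 scale, from 2.47 to 14.42 over all probe sets, and the array medians lay between 5.92 and 5.95. Precision is limited by having 3 arrays a cross. Correlations over the 27385 tested probe sets ran from 0.989 to 0.993 within a cross and from 0.963 to 0.975 between crosses. The tissue label fitted its markers, since the recombinase gene Rag1 averaged 12.99 ± 0.09 on AKR arrays and 13.06 ± 0.03 on DBA arrays (mean ± SD, n = 3 each). Array DBA1 (replicate 1 of the DBA cross) stood apart in a list of fat and muscle genes, whose summed linear level was 11836 on DBA1 and between 1970 and 5067 on the other arrays. The class II probe sets, the named pathway genes and the counts of calls among probe sets and pathway genes were also computed without each array in turn. Shared probe sets, gaps between probe sets, chromosome neighbours, cell markers and pattern distances were not.

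A difference is the mean log2 value of the AKR arrays minus that of the DBA arrays, given with limma's standard error (SE). Negative differences thus mean lower readings in the AKR cross. A probe set was called when its Benjamini-Hochberg adjusted p, over all 27385 probe sets bright enough to test, was under 0.05. Of the 19 class II probe sets, 17 passed the filter on dim values. Of these 17, 8 were called, where 27.2% of all tested probe sets were called. Lower in the AKR cross were 7 of the 17, against 15.0% of all tested probe sets, and 1 was higher, against 12.2%. The 7 came from only 3 genes, H2-Ea, H2-DMb2 and H2-Ab1, and the 1 from H2-Oa. Taking 1 probe set for each gene, the brightest, 3 of 9 genes were called, where the share over all genes was 25.0%. The median difference was -0.19 over the 17 probe sets and 0.01 over all tested probe sets. The 6 arrays separated into crosses without overlap for 10 of the 17, and for 44.7% of all tested probe sets. Since the members were chosen with earlier results known, these shares describe the set and do not test it. Without array DBA1 the counts stayed at 7 lower and 1 higher in the AKR cross.

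**Figure D1:**
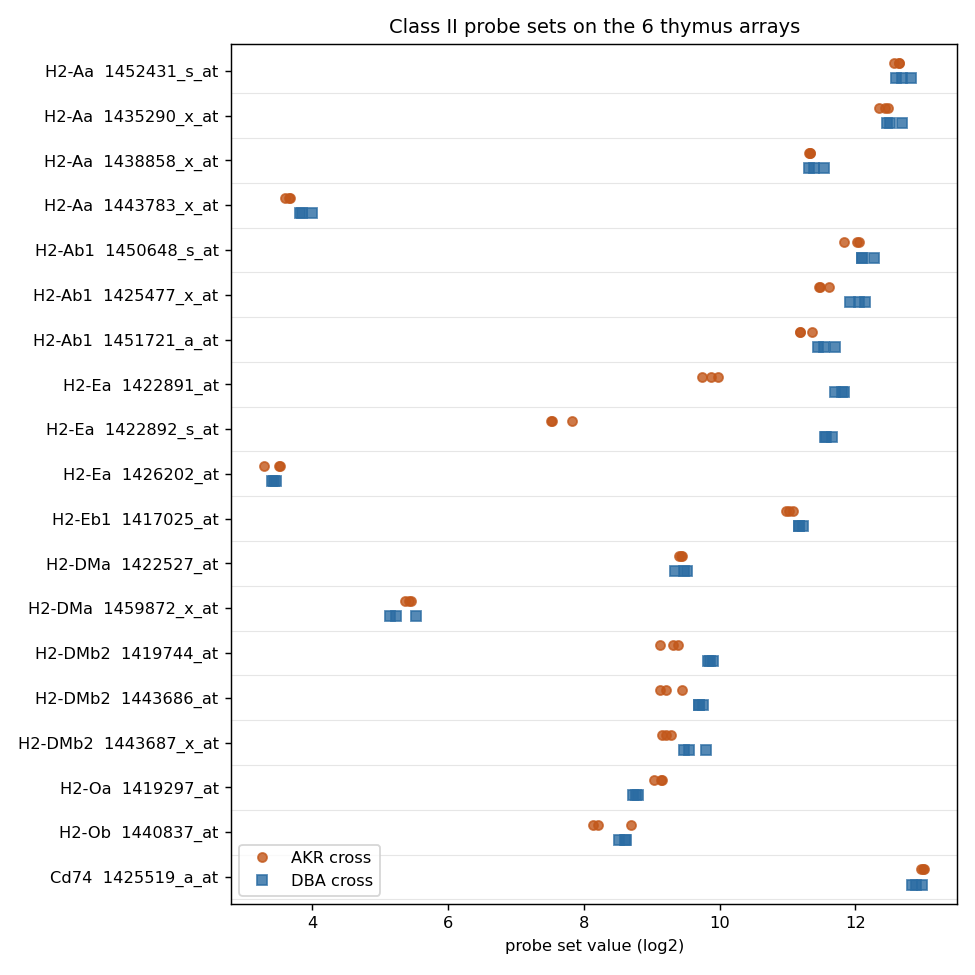
Value of each of the 19 class II probe sets on every array, in log2 units on the horizontal axis, with the AKR cross as circles above the DBA cross as squares in each row. The circles and squares lie far apart for 2 H2-Ea probe sets and close together or intermixed for H2-Aa, H2-DMa and Cd74.

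H2-Ea, the alpha chain gene of H2-E, showed the widest separation among the members. Probe set 1422891_at read 9.74, 9.87 and 9.98 on the AKR arrays and 11.70, 11.80 and 11.83 on the DBA arrays. Every AKR array lay below every DBA array, and the spread within each cross was small beside the gap. The difference was -1.92 ± 0.07 (SE, limma adjusted p = 7.61e-07), a ratio of 3.77 (DBA cross over AKR cross). A second probe set, 1422892_s_at, read 7.52, 7.53 and 7.82 on the AKR arrays and 11.56, 11.65 and 11.56 on the DBA arrays. Its difference was -3.96 ± 0.09 (SE, limma adjusted p = 4.28e-08), a ratio of 15.6 in the same direction. The crosses were again fully apart, with array AKR3 the highest of its cross on both probe sets. The third, 1426202_at, read from 3.30 to 3.53 in the AKR cross and from 3.42 to 3.47 in the DBA cross. It lay below the 40th percentile of all 6 arrays, was not tested, and its crosses overlapped.

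The 2 bright H2-Ea probe sets moved by unequal amounts. Set against each other within each array, their log2 values differed by 2.24 ± 0.09 on AKR arrays and by 0.19 ± 0.07 on DBA arrays (mean ± SD, n = 3 each), so the 2 cross differences were 2.05 apart. An exact two-sided permutation test over the 6 arrays gave p = 0.1, the smallest that 3 against 3 samples allow, and an adjusted p = 0.267 over the 8 such pairs compared among the members. The ratios 3.77 and 15.6 are thus readings of 2 probe sets and give no single size for the change in H2-Ea RNA. Probe sequences were not used here. Whether strain variants lie under these probes, or under those of any other member, was not tested. In the RefSeq table of the C57BL/6J assembly GRCm38.p6, H2-Ea is entered as a transcribed pseudogene on chromosome 17. C57BL/6J is not a parent of these mice, and its entry describes neither cross.

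H2-Eb1 encodes the beta chain that pairs with the product of H2-Ea, and it had 1 probe set. It read 10.98, 11.01 and 11.09 on the AKR arrays and 11.16, 11.23 and 11.17 on the DBA arrays. The crosses did not overlap, yet the difference was small, at -0.16 ± 0.05 (95% interval -0.28 to -0.04), and it was not called (limma adjusted p = 0.0510). In 3 of 17 other settings it was called, among them array weights (limma adjusted p = 0.0420).

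H2-Aa encodes the alpha chain of H2-A, the other classical class II molecule, and 3 of its 4 probe sets were tested. The brightest, 1452431_s_at, read 12.57, 12.63 and 12.65 on the AKR arrays and 12.69, 12.82 and 12.60 on the DBA arrays. The crosses overlapped, and the difference was -0.08 ± 0.06 with a 95% interval from -0.21 to 0.04. The other 2 differed by -0.14 and -0.08, and no H2-Aa probe set was called. The fourth, 1443783_x_at, read from 3.61 to 3.68 in the AKR cross and from 3.82 to 3.99 in the DBA cross, below the 40th percentile of every array, and was not tested.

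H2-Ab1, which encodes the beta chain of H2-A, had 3 tested probe sets, and 2 of them were lower in the AKR cross. Probe set 1425477_x_at read 11.48, 11.46 and 11.61 on the AKR arrays and 12.05, 12.14 and 11.92 on the DBA arrays. The crosses lay apart, with a difference of -0.52 ± 0.07 (SE, limma adjusted p = 0.000674) and a ratio of 1.43 (DBA cross over AKR cross). Probe set 1451721_a_at read 11.18, 11.18 and 11.36 on the AKR arrays and 11.54, 11.70 and 11.45 on the DBA arrays. It differed by -0.32 ± 0.08 (limma adjusted p = 0.0135), and this call was lost without array AKR2 (limma adjusted p = 0.0502). The brightest, 1450648_s_at, read 12.02, 11.83 and 12.05 on the AKR arrays and 12.10, 12.27 and 12.10 on the DBA arrays. Its crosses also did not overlap, but at -0.19 ± 0.07 it was not called (limma adjusted p = 0.0805). The 3 probe sets of H2-Ab1 thus shared a direction and differed in size, from -0.52 to -0.19. Whether strain variants under the H2-Ab1 probes have a part in this was not tested. The within-array gap between the brightest and 1425477_x_at was 0.45 ± 0.09 on AKR arrays and 0.12 ± 0.06 on DBA arrays (mean ± SD, n = 3 each; exact two-sided permutation p = 0.1, adjusted p = 0.267).

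**Figure D2:**
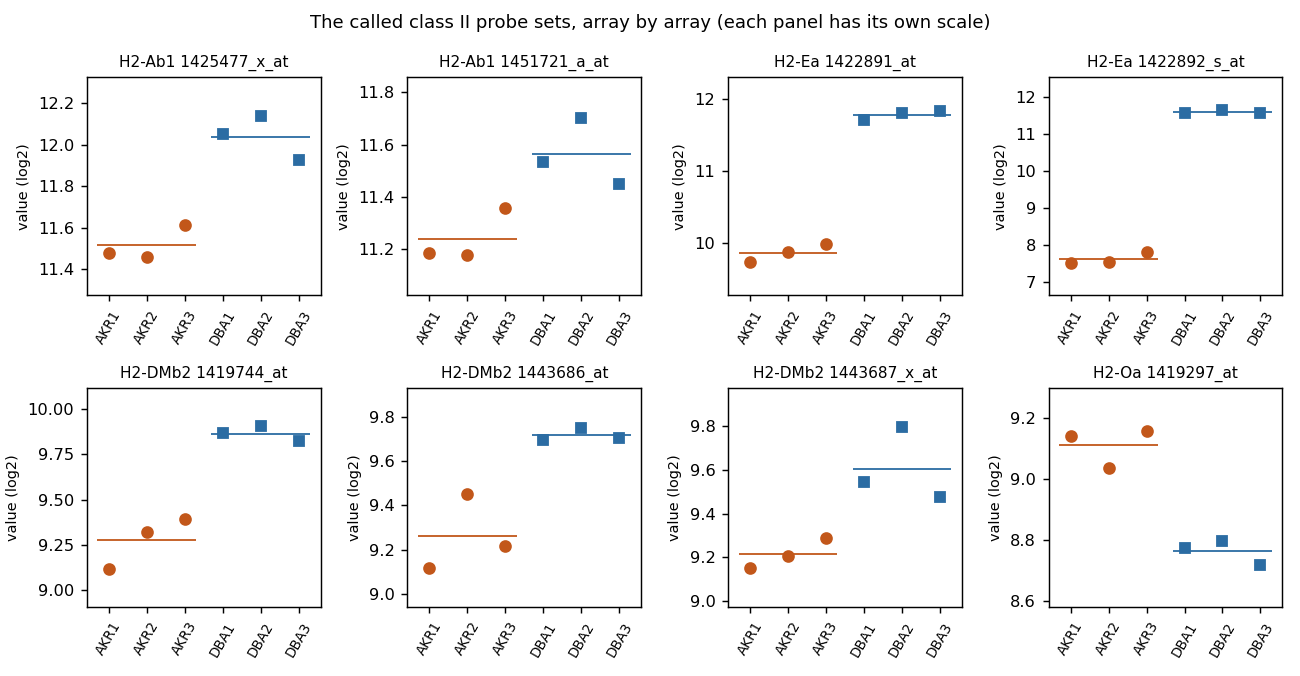
The 8 called class II probe sets, 1 panel each, with the log2 value on each AKR array (circles, left) and each DBA array (squares, right) and a line at the mean of each cross. The vertical scale differs between panels. In 7 panels the AKR arrays all lie below the DBA arrays, and in the H2-Oa panel they all lie above.

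H2-DMb2 encodes a beta chain of H2-DM, the peptide exchange factor, and all 3 of its probe sets were lower in the AKR cross. Probe set 1419744_at read 9.12, 9.32 and 9.39 on the AKR arrays and 9.87, 9.91 and 9.82 on the DBA arrays, a difference of -0.59 ± 0.08 (limma adjusted p = 0.00112). Probe set 1443686_at read 9.12, 9.45 and 9.22 on the AKR arrays and 9.70, 9.75 and 9.70 on the DBA arrays, with a difference of -0.45 ± 0.09 (limma adjusted p = 0.00589). The crosses were apart in both, and the AKR arrays were the more spread. Probe set 1443687_x_at read 9.15, 9.21 and 9.29 on the AKR arrays and 9.55, 9.79 and 9.47 on the DBA arrays, with a difference of -0.39 ± 0.09 (limma adjusted p = 0.0138). These 3 calls held in each of the settings that could test them, and the 3 differences ranged from -0.59 to -0.39. Probe sets 1443686_at and 1443687_x_at are annotated to the same source sequence and are not independent readings of the gene.

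The neighbouring gene H2-DMb1 encodes the other H2-DM beta chain, and 2 further probe sets carry the symbols of both beta chain genes. Probe set 1449580_s_at read 9.64, 9.61 and 9.75 on the AKR arrays and 9.81, 9.79 and 9.71 on the DBA arrays. The other, 1418638_at, read 7.40, 7.12 and 7.44 on the AKR arrays and 7.43, 7.57 and 7.32 on the DBA arrays. The crosses overlapped on both, with differences of -0.11 ± 0.07 and -0.12 ± 0.11, and neither was called (limma adjusted p = 0.263 and 0.469). H2-DMa, the alpha chain gene of H2-DM, read 9.44, 9.41 and 9.45 on the AKR arrays and 9.47, 9.53 and 9.35 on the DBA arrays on its brighter probe set. The difference was -0.01 ± 0.07 (95% interval -0.17 to 0.15). The dimmer H2-DMa probe set, 1459872_x_at, differed by 0.11 ± 0.12 and was not called either. Among the H2-DM probe sets, calls were thus made on those of H2-DMb2 alone, and a difference for H2-DMb1 could not be read.

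H2-Oa, the alpha chain gene of the H2-DM inhibitor H2-DO, was the only member called higher in the AKR cross. It read 9.14, 9.04 and 9.16 on the AKR arrays and 8.77, 8.80 and 8.72 on the DBA arrays, so all AKR arrays lay above all DBA arrays. The difference was 0.35 ± 0.07 (SE, limma adjusted p = 0.00728), a ratio of 1.27 (AKR cross over DBA cross), and it was called in all 17 other settings. H2-Ob encodes the partner beta chain and had 1 probe set of its own. It read 8.14, 8.21 and 8.70 on the AKR arrays and 8.52, 8.60 and 8.62 on the DBA arrays. Array AKR3 stood above the whole DBA cross and the other AKR arrays below it, and the difference was -0.23 ± 0.14 (limma adjusted p = 0.233). Without array AKR3 it became -0.41 and was called (limma adjusted p = 0.0147). A call of opposite directions for the 2 chains of H2-DO was thus made only with that array left out. A further probe set, 1422201_at, carries the symbols of H2-Ob and the neighbouring Gm20506, and it averaged 6.24 ± 0.02 on AKR arrays and 6.22 ± 0.05 on DBA arrays (mean ± SD, n = 3 each; not called, limma adjusted p = 0.876).

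Cd74, the invariant chain gene, had the brightest of the member probe sets and was above 99.5% of probe sets on each array. It read 12.99, 12.97 and 13.02 on the AKR arrays and 12.89, 12.97 and 12.83 on the DBA arrays. The difference was 0.10 ± 0.04 with a 95% interval from -0.003 to 0.19, and it was not called (limma adjusted p = 0.136). Cd74 lies on chromosome 18, and the other members lie together on chromosome 17.

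**Figure D3:**
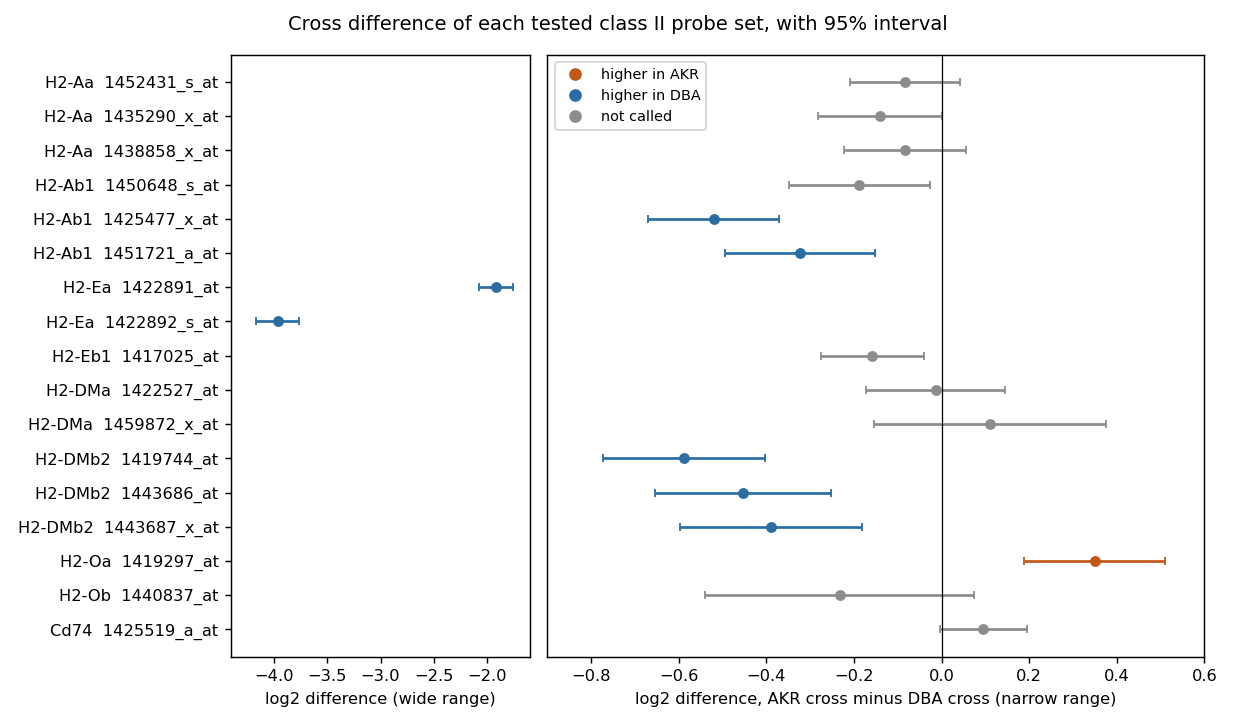
Difference between the crosses (AKR cross minus DBA cross, log2) for each of the 17 tested class II probe sets, as points with 95% intervals from limma, coloured by call. The left panel has a wider range than the right to hold H2-Ea at -3.96 and -1.92, and in the right panel the other members lie between -0.59 and 0.35.

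Class II genes are known to share a promoter module, with an X box bound by the RFX complex and a Y box bound by NF-Y, on which the coactivator CIITA assembles. The promoters below are shown because they belong to the genes that moved in opposite directions, H2-DMb2 and H2-Oa, beside the H2-DMb2 neighbour H2-DMb1 and the H2-E beta chain gene H2-Eb1. They are from RefSeq, build GRCm38.p6 of C57BL/6J, and run from 250 bases before to 50 bases after the gene start, 5′ to 3′. Capitals mark matches on either strand to GATTGG, the core of the Y box, and to AGCAAC, from the X box. The parents of these crosses can differ from these sequences.
H2-DMb2 promoter, chr17:34144999-34145298, plus strand: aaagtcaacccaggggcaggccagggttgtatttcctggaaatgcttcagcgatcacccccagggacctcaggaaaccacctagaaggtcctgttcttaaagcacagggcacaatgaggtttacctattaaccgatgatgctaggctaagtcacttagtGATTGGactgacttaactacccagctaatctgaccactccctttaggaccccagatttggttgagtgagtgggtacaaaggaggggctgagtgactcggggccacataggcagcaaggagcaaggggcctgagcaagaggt
H2-DMb1 promoter, chr17:34152941-34153240, plus strand: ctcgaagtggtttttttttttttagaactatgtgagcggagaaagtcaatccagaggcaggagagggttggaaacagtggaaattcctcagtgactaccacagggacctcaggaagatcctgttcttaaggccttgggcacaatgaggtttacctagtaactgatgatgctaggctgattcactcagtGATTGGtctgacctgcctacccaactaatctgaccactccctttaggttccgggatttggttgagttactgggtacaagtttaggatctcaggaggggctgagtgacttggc
H2-Eb1 promoter, chr17:34305617-34305916, plus strand: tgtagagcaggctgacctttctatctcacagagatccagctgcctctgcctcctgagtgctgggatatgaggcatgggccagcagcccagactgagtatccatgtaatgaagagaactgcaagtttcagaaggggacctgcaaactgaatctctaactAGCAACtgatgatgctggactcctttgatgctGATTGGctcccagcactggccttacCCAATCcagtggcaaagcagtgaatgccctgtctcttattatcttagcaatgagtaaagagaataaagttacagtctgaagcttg
H2-Oa promoter, chr17:34092129-34092428, plus strand: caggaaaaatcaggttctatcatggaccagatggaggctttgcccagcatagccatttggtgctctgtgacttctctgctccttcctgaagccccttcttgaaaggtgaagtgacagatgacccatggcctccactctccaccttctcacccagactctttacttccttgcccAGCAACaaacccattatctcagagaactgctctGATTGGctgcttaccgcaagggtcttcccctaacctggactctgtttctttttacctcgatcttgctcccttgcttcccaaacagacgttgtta
H2-DMb2 and H2-DMb1 each held 1 match to GATTGG, starting 91 and 62 bases before the gene start, and none to AGCAAC. H2-Eb1 held both motifs, with AGCAAC starting 92 bases and GATTGG 60 bases before the start, and a second, reverse match to GATTGG at 35 bases. H2-Oa held both as well, at 77 and 44 bases before the start, in the same order. The H2-DMb2 and H2-DMb1 windows were 84.2% identical over 247 aligned bases, while the other 5 pairs of these windows were between 56.5% and 66.8% identical under the same alignment. The 8 member promoters searched cover 7 genes. H2-Ea and H2-Ab1, which were also called lower in the AKR cross, and Cd74 had no promoter among them. Of these 8 promoters, 7 held GATTGG and 3 held both motifs. Of all 32851 promoters of that length, 16.1% held GATTGG, 14.8% held AGCAAC and 2.64% held both. H2-Oa, H2-Eb1 and H2-Ob held exact matches to both motifs, and of these only H2-Oa was called. H2-Eb1 (-0.16) and H2-Ob (-0.23) had negative differences, as H2-DMb2 had. No match to AGCAAC was held by H2-DMb2, H2-DMb1, H2-Aa or H2-DMa, and neither H2-Aa nor H2-DMa was called. Only exact matches were searched, so an X box with other letters would be missed. These matches describe the letters only.

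Most member probe sets shared their highest array within each cross, though some of them read the same gene. Array DBA2 was the highest of the DBA arrays for 14 of the 17 tested probe sets, where this was so for 28.2% of all tested probe sets. Array AKR3 was the highest AKR array for 15 of the 17, against 37.4% of all. Within-cross SDs on the called probe sets ran from 0.03 to 0.17, and both ends came from 1443686_at of H2-DMb2, the high one on the AKR arrays and the low one on the DBA arrays.

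Along chromosome 17 the 9 linked members span 16 annotated genes from H2-Oa to H2-Ea, and 6 of the 7 others were measured. The immunoproteasome gene Psmb9 was higher in the AKR cross (0.34 ± 0.05, limma adjusted p = 0.00222), as was Psmb8 (0.19 ± 0.05, limma adjusted p = 0.0185). Brd2, Tap1, Tap2 and H2-Eb2 were not called. H2-Eb2 lies between H2-Eb1 and H2-Ea and averaged 6.86 ± 0.01 on AKR arrays and 6.87 ± 0.11 on DBA arrays (mean ± SD, n = 3 each). Genes called in each direction thus lay among genes that were not called. The stretch was cut at the outermost members, so H2-Ea stands at its end by construction. Genes beyond it were not examined here.

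The wider class II pathway was examined with 4 gene lists, in which 29 genes were tested, each by its brightest probe set. Higher in the AKR cross were 4 of the 29, against 13.1% of all genes, and 3 were lower, against 11.9%. The other 22 were not called. The median difference was 0.05, against 0.03 over all genes. The counts were thus close to those of the array as a whole.

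Among 12 transcription factors of class II genes, 1 was higher and 1 was lower in the AKR cross. Nfya, a subunit of NF-Y, averaged 9.27 ± 0.06 on AKR arrays and 8.90 ± 0.17 on DBA arrays, a difference of 0.37 ± 0.09 (limma adjusted p = 0.0184) that was not called without array AKR1 (limma adjusted p = 0.0577), and neither of its 2 other tested probe sets was called. Creb1, a factor of the X2 box, averaged 10.89 ± 0.09 on AKR arrays and 11.25 ± 0.05 on DBA arrays, a difference of -0.36 ± 0.06 (limma adjusted p = 0.00303), and none of its 4 other probe sets was called. Ciita, the master coactivator, was looked up although the rule for named genes did not pick it. It read 5.81, 6.10 and 6.14 on the AKR arrays and 6.02, 5.87 and 5.95 on the DBA arrays, with a difference of 0.07 ± 0.11 (95% interval -0.19 to 0.33). Irf8, Nfyb and Irf1 differed by 0.24, -0.17 and 0.12 and were not called, though Nfyb was called without array DBA1 (limma adjusted p = 0.0405), Irf8 was called in 6 other settings and the other Irf8 probe set was called in the opposite direction.

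Endosomal proteases, which trim the invariant chain and cut antigens, went both ways. Ctsl, the cathepsin L gene known to degrade the invariant chain in cortical epithelium, averaged 13.58 ± 0.05 on AKR arrays and 13.27 ± 0.05 on DBA arrays, a difference of 0.31 ± 0.04 (limma adjusted p = 0.00082). Ctss, the cathepsin S gene that does so in dendritic cells and B cells, averaged 11.84 ± 0.04 on AKR arrays and 12.10 ± 0.08 on DBA arrays, a difference of -0.26 ± 0.05 (limma adjusted p = 0.0066). Both groups of arrays were fully apart for Ctsl and for Ctss, in opposite directions. Ctsd (0.33 ± 0.05, limma adjusted p = 0.00239) and Ctsb (0.23 ± 0.05, limma adjusted p = 0.00597) were also higher in the AKR cross, and of 4 other Ctsb probe sets 1 was called, in the same direction. Ctsz, Ifi30, which encodes the lysosomal thiol reductase, and Ctsh differed by 0.05, 0.06 and -0.09 and were not called. Marchf8, a ubiquitin ligase gene of the family that removes class II from the surface, was lower in the AKR cross at 5.84 ± 0.04, against 6.40 ± 0.09 in the DBA cross (-0.56 ± 0.09, limma adjusted p = 0.0029). Its relative Marchf1 differed by -0.17 and Cd83, which stabilises class II at the surface, by 0.01, and neither was called. None of 6 genes for the class II ligands Cd4 and Lag3 and for costimulation was called, and their differences included 0.12 for Cd4, 0.12 for Cd274 and -0.04 for Cd86. Without array DBA3 the differences became 0.022 for Cd4 and 0.046 for Cd274.

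**Figure D4:**
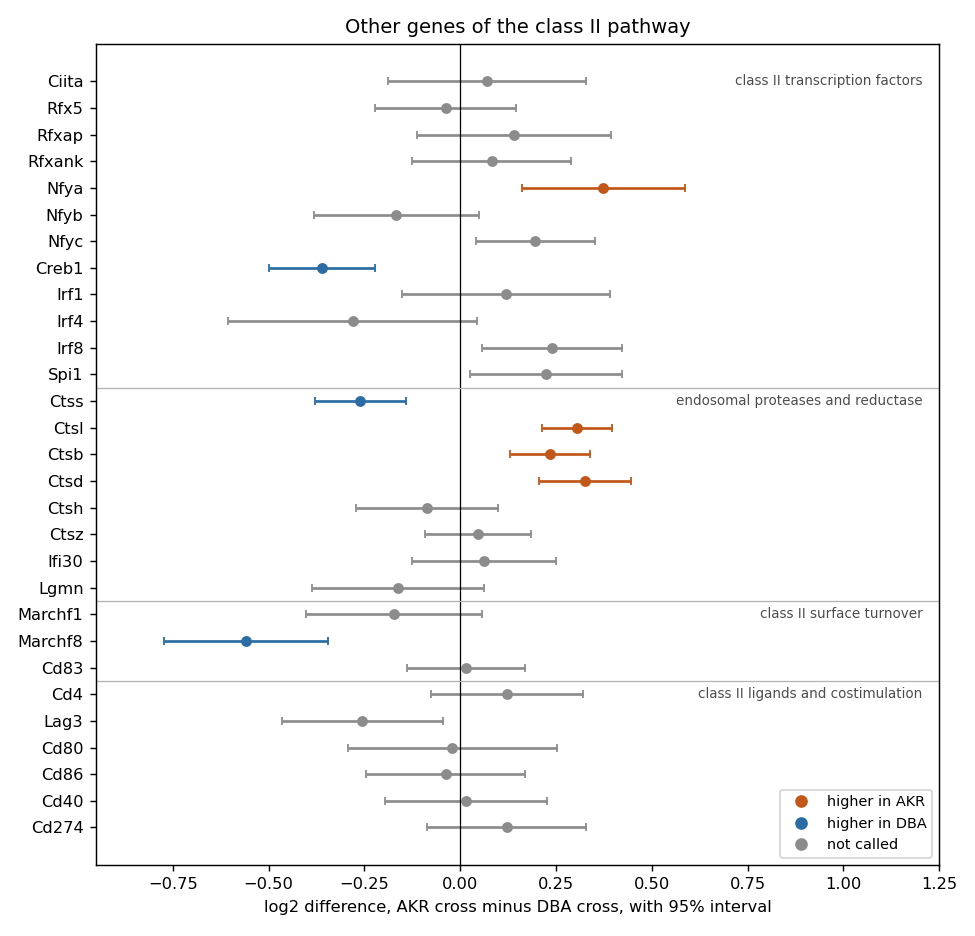
Difference between the crosses (AKR cross minus DBA cross, log2) with 95% intervals for the 29 tested genes of 4 class II pathway lists, coloured by call. Nfya, Ctsl, Ctsb and Ctsd lie to the right of 0, Creb1, Ctss and Marchf8 to the left, and the grey points were not called.

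Markers of cells that carry class II were counted against the 25.0% of all genes that were called, 13.1% higher and 11.9% lower in the AKR cross. Of 7 tested B cell genes, the AKR arrays were higher for 4 and lower for 0, and their summed linear level was 1472 to 1551 on the AKR arrays and 1105 to 1218 on the DBA arrays. The medullary epithelial list had 1 of 8 higher and 4 lower in the AKR cross, with sums of 2540 to 2647 on the AKR arrays and 2781 to 3149 on the DBA arrays. The sums of both lists separated the crosses, in opposite directions. Yet the medullary genes were mixed. The 1 higher gene, Cldn4, had the largest difference of that list (1.24 ± 0.13, limma adjusted p = 0.000213). The 4 lower ranged from -0.59 (Epcam) to -0.34 (Aire). Krt5, Krt14 and Epcam weigh most in the medullary sums, and the other tested Krt14 and Epcam probe sets were not called. The dendritic cell list had 2 of 9 higher and 1 lower in the AKR cross, with sums of 2145 to 2617 on the AKR arrays and 2567 to 3043 on the DBA arrays. Its brightest genes, Fscn1 and Ccr7, weigh most in these sums. Fscn1 was the one called lower (-0.45 ± 0.10), but 2 of its 3 other tested probe sets were called higher. Ccr7 was not called. The 2 dendritic genes called higher were Cd209a (0.56 ± 0.11, limma adjusted p = 0.00614) and Flt3 (0.31 ± 0.09, limma adjusted p = 0.0341). The macrophage list had 2 of 9 higher and 1 lower (6024 to 6175 on the AKR arrays, 5776 to 6240 on the DBA arrays), and the cortical epithelial list had 2 of 8 higher and 0 lower (21027 to 21724 on the AKR arrays, 19822 to 21891 on the DBA arrays). Of 11 thymocyte markers, 1 was higher in the AKR cross, and thymocyte sums overlapped. Neutrophil genes, which are not class II genes, had 4 of 7 lower in the AKR cross, with sums of 1364 to 2360 on the AKR arrays and 2811 to 3613 on the DBA arrays. Arrays AKR3 and DBA2 had the highest sums of their crosses for the B cell, dendritic cell, macrophage, medullary, cortical and neutrophil lists, as for most class II probe sets, but not for the thymocyte, fat and muscle or red cell lists. The part of these cell markers in the class II differences was not tested.

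The genes whose array pattern was nearest to that of H2-Ea probe set 1422891_at were found by the Euclidean distance between values centred on the mean of the 6 arrays. The nearest was a probe set of Dnajc1 (1447649_x_at), at a distance of 0.157 log2 units, which read 6.74, 6.80 and 7.08 on the AKR arrays and 8.67, 8.85 and 8.76 on the DBA arrays. Cald1 followed at 0.238 and Ino80d at 0.250. These 3 probe sets share with that of H2-Ea a step between the crosses of near equal size, from -1.89 to -1.76, which is what the distance over 6 arrays in 2 groups mostly measures. Of the other tested probe sets of these genes, those called lower in the AKR cross were 2 of 5 for Dnajc1, 2 of 2 for Cald1 and 0 of 2 for Ino80d. None of these 3 genes is a class II gene.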

How the data were processed

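Thymus RNA from 6 samples of adult female F1 mice was hybridised to single-colour Affymetrix mouse arrays. The deposited table gave 1 log2 value per probe set and array, made by the authors. Per the submitters' processing notes 2 summary methods, MAS5 and RMA, were in use, without role or version, and the sources used here do not say which one these values come from. Ranked by value, the arrays had nearly equal distributions (mean SD 0.0291 between arrays at a rank). No normalization was added.

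After removal of 64 control probe sets, those above the array's 40th percentile on 3 or more arrays were tested, 27385 of 45037. Symbols came from the platform annotation, and all 19 class II probe sets matched the RefSeq gene table of GRCm38.p6 by Entrez identifier. Differences were tested two-sided with limma 3.58.1 (R 4.3.3, lmFit, then eBayes with an intensity trend), over all tested probe sets. The fit was also run on simulated data, where most changes of the smaller simulated size were not recovered. A probe set that was not called is thus not shown to be equal between the crosses. The members and lists were chosen with earlier results of these data known. The rule for named genes took all member probe sets, and from each pathway list all called genes and up to 3 others with the highest means. For cell marker lists the rule took the called genes with the smallest adjusted p, but mainly counts and sums are given, with a few genes named. Alternatives changed the filter, the normalization, the variance model or a floor on low values, blocked on replicate number, dropped 1 array at a time, or left out probe sets that can match several transcripts, and one averaged a gene's probe sets. No label states that each sample is another animal, and p-values then reflect the spread between these samples, possibly a technical one. Figures were drawn with matplotlib 3.10.9.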

Additional observations from a re-analysis of the deposited data

How the results depend on the processing

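The count of class II probe sets higher in the AKR cross was 1 in all 17 other settings, and the count lower in the AKR cross was 6 to 8 with 1 array left out. That count of 7 fell to 4 when probe sets that can match several transcripts were left out, because 3 called probe sets were then not tested. Over all probe sets, 7449 were called, and 4946 to 6051 with 1 array left out, the lowest without array DBA2. Of 280 recomputed member values, 272 kept direction and call. The main fit did not pair the samples by replicate number. Same-numbered arrays deviated together for numbers 1 and 3 (r = 0.389 and 0.371) and little for number 2 (r = 0.0697). With 3 arrays a cross these values cannot settle whether the samples were paired. With the replicate block, 1 class II probe set was higher and 8 were lower in the AKR cross, 9 pathway genes were called and 9839 probe sets were called in all. Signs changed only for values near 0 that were called in no setting. H2-DMa probe set 1422527_at became 0.0415 after quantile normalization and 0.00213 with arrays centred on their medians, and ranged from -0.0647 to 0.0257 with 1 array left out. With 1 array left out Ifi30 ranged from -0.0199 to 0.121, Cd83 from -0.0197 to 0.0628 and Cd86 from -0.112 to 0.0174. The cause was not tested. Probe sets near the 40th percentile, such as 1459872_x_at, leave little signal over background.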
